A study of Mus musculus with 4 samples.

Results

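A set of 10 genes of the adipocyte lineage were examined in sarcomas of W/+ mice: the transcription factor genes *Pparg*, *Cebpa*, *Cebpb*, *Cebpd* and *Zfp423*, and the adipocyte product genes *Adipoq*, *Lep*, *Retn*, *Cfd* and *Fabp4*. They were taken by their symbols as a named set of factors and products, and all 10 were found among the 56691 genes of the RNA-seq table. The W/+ mice carry 1 knock-in missense allele of *Trp53*, given as p53R282W/+ in the labels after the human residue, beside 1 wild-type allele. All 4 sarcomas had this genotype, so no sarcoma of another genotype served as a reference. The 2 ATO sarcomas came from mice given arsenic trioxide, an arsenic drug used in leukemia, in their drinking water. The 2 control sarcomas (Ctl) came from mice given PBS. The allele was made by gene editing of mouse embryos on a C57BL/6N background and is carried by every cell of the mouse. The study describes sarcomas of several kinds in these mice, and the labels give neither the kind, the site nor the age at which each of the 4 was taken. The labels also give, for all 4, a culture protocol with dexamethasone, isobutylmethylxanthine and insulin, agents used to turn cultured preadipocytes into adipocytes. Whether any of the 4 was cultured was not tested, and since the text is the same for both groups it separates no sarcoma from another.

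Adipocytes form when committed mesenchymal precursors switch on a short cascade of transcription factors. C/EBPβ and C/EBPδ act early and switch on *Pparg* and *Cebpa*, whose products maintain each other and bind next to a large share of the genes that make a mature fat cell. The mature cell then secretes hormones into the blood, among them adiponectin, leptin, resistin and adipsin, and carries fatty acids on the cytosolic protein FABP4.

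The stretch just before the transcription start is where general factors assemble, and C/EBP proteins and PPARG can bind there or farther away. RefSeq (GRCm38.p6) held such stretches for 8 of the 10 genes, in 11 windows, and none for *Cebpd* and *Fabp4*. The 4 shown here belong to the pair of factors at the centre of the cascade and to both of the best known hormones below it. Each is the 250 bases before a start, and capitals mark matches to the C/EBP motif TTGCNNAA, the nuclear receptor half-site AGGTCA or the TATA motif TATAAA, read on both strands.
*Cebpa*, chr7:35119043-35119292, plus strand: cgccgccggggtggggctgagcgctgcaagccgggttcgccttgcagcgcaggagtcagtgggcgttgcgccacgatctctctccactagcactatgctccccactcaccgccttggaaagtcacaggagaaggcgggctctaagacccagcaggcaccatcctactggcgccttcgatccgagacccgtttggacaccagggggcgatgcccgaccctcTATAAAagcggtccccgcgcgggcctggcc
*Pparg*, downstream start, chr6:115421816-115422065, plus strand: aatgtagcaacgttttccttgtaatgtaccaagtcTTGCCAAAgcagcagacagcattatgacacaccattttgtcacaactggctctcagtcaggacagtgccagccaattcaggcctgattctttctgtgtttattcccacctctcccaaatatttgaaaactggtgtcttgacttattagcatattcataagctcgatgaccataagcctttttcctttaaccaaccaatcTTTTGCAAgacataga
*Adipoq*, chr16:23146286-23146535, plus strand: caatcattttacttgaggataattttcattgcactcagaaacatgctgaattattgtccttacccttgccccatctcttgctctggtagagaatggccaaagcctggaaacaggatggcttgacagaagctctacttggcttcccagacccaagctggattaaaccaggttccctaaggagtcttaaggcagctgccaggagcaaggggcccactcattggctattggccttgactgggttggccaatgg
*Lep*, chr6:29059971-29060220, plus strand: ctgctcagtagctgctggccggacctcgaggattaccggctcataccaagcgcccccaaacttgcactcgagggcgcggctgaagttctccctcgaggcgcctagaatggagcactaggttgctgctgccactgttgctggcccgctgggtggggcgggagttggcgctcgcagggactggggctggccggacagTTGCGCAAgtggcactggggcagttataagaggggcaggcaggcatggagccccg
The *Lep* window held 1 C/EBP match, TTGCGCAA, from 55 to 48 bases before the start. The *Pparg* window held matches at 215 to 208 and at 16 to 9 bases before its start. A C/EBP match also lay in 1 window of *Zfp423*, so 3 of the 11 windows had one, beside 9.57% of 32817 windows of the same length. The half-site lay in 3 of the 11, of *Pparg* and *Zfp423*, beside 14.0% of all windows, and TATAAA in 2 of the 11, of *Cebpa* and *Pparg*, beside 12.4%. The *Adipoq* window held none of the 3 motifs. These matches describe letters in a window and were not tested as sites.

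Total counts were between 15259695 and 18134000 per sarcoma, and 1 of the 4 stood apart in its mitochondrial reads, with 14.7% in ATO 2 against 1.98% to 2.59% in the others. Counts were normalized with edgeR's TMM factors and are given as CPM, the counts scaled to a common library size, which compare a gene between sarcomas, while levels of different genes are compared as FPKM, which divides by gene length. Differences were tested with edgeR's quasi-likelihood test with Benjamini-Hochberg adjustment at 0.05 over 17188 genes. This test called 0 genes of any kind (0%, smallest adjusted p 0.570), 1463 had an unadjusted p under 0.05, and DESeq2 called 753. The biological coefficient of variation was 62.5%. The p-values measure the spread between these sarcomas only.

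The secreted products of mature adipocytes were read in both ATO sarcomas and were at or near 0 in both Ctl sarcomas, with at most 21 counts (*Retn* in Ctl 2). *Fabp4* was not near 0, with 990 and 5333 counts in Ctl. All 4 genes of secreted adipokines were higher in each ATO sarcoma than in either Ctl sarcoma, and together they had 3 and 30 counts in Ctl 1 and Ctl 2 against 3683 and 11741 in ATO 1 and ATO 2. Of the 10 genes, 8 had both ATO sarcomas above both Ctl sarcomas in CPM, against 19.7% of all genes tested, and 0 of 10 were the other way round, against 20.2%. With edgeR, 0 of 10 passed the adjusted threshold, and 6 had an unadjusted p under 0.05 in the direction of ATO, against 5.44% of all genes. DESeq2 called 6 of 10 as higher (*Cebpa*, *Adipoq*, *Lep*, *Retn*, *Cfd* and *Fabp4*), against 3.25% of its 18295 genes. *Adipoq*, *Lep*, *Retn* and *Cfd* passed the filter on low counts only through the ATO sarcomas, so their part in these counts follows in part from the filter. In bulk tissue, fewer adipocytes and less of a transcript per adipocyte cannot be told apart.

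**Figure D1:**
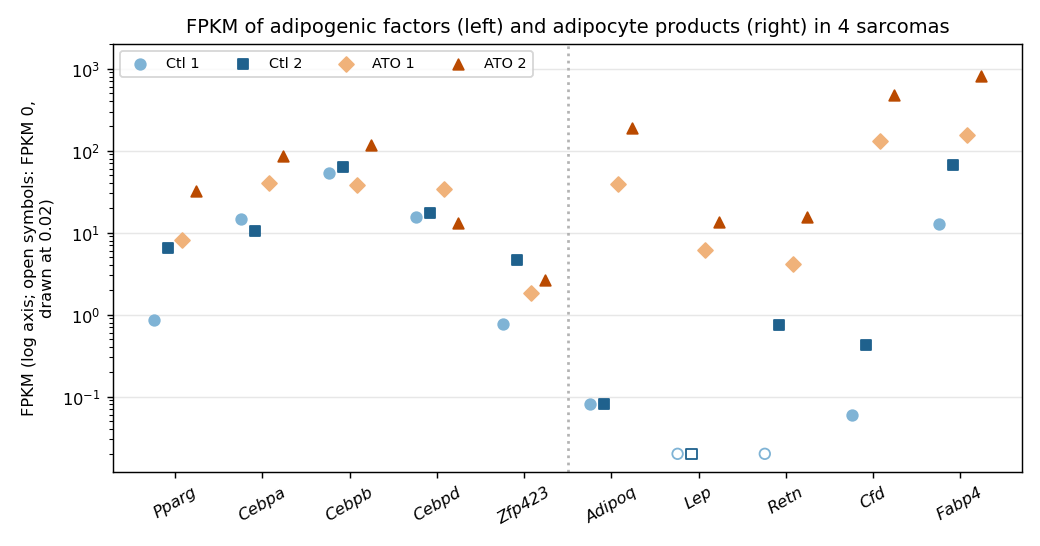
FPKM of each gene (log axis) in the 4 sarcomas, with 1 symbol per sarcoma and open symbols, drawn at 0.02, for an FPKM of 0. The 4 secreted adipokines lie at 0.74 FPKM or less in Ctl and at 4.16 FPKM or more in ATO, while *Cebpb*, *Cebpd* and *Zfp423* overlap between the groups in FPKM.

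*Adipoq* encodes adiponectin, a hormone that raises insulin sensitivity, and lies on chromosome 16 of GRCm38 from 23146536 to 23158028 on the plus strand. It had 2 counts in both Ctl sarcomas, against 974 in ATO 1 and 4017 in ATO 2, or 0.08, 0.08, 38.89 and 190.62 FPKM. Both Ctl values were below the 3 counts that a count of 0 allows. The groups lay far apart, and within ATO the second sarcoma was 6.02 times the first (95% counting interval 5.61 to 6.46). The ratio of summed normalized counts was 1580, with a counting interval of 617 to 5802 that does not cover the spread between sarcomas. The fitted log2 fold change was 10.74 ± 1.38 (SE, 2 sarcomas a group, adjusted p = 0.570 in edgeR). DESeq2 gave an adjusted p of 2.5e-15, the smallest over the alternatives that kept all sarcomas, whose largest was 0.754, in a limma fit.

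*Lep* encodes leptin, the hormone by which fat stores signal to the brain, and lies on chromosome 6 from 29060220 to 29073877 on the plus strand, starting at the last base of the window shown above. It had 0 counts in both Ctl sarcomas, 377 in ATO 1 and 694 in ATO 2, or 6.20 and 13.56 FPKM in the ATO sarcomas. A count of 0 allows up to 3 counts per library, which is 0.154 CPM on average in Ctl after TMM scaling. Over that floor the ATO mean of *Lep*, 38.2 CPM, was at least 247-fold higher. That bound does not cover the spread between sarcomas, and ATO 1 alone was at 20.7 CPM. *Lep* is the only one of the 10 without a read in either Ctl sarcoma. It differed less between the ATO sarcomas than *Adipoq* did, by 2.69 times (2.37 to 3.05). Its adjusted p was 0.570 in edgeR and 1.6e-09 in DESeq2. The latter was the lowest over the alternatives that kept all sarcomas, which reached 0.754 in a limma fit.

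*Cfd* encodes adipsin, also called complement factor D, a serine protease of the alternative complement pathway, and lies on chromosome 10 from 79890853 to 79892655 on the plus strand. It had 1 and 7 counts in the Ctl sarcomas and 2213 and 6653 in the ATO sarcomas. In FPKM these were 0.06 and 0.42 against 132.36 and 472.87, and in each ATO sarcoma this was the highest level of any secreted product among the 10. The ratio of summed normalized counts was 1404 (712 to 3252), and the log2 fold change, with its SE, was 10.60 ± 1.48 (adjusted p = 0.570 in edgeR).

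*Retn* encodes resistin, a small cysteine-rich hormone that adipocytes secrete in mice, and lies on chromosome 8 from 3655770 to 3660110 on the plus strand. It had 0 and 21 counts in Ctl 1 and Ctl 2 and 119 and 377 in ATO 1 and ATO 2, or 0, 0.74, 4.16 and 15.65 FPKM. Ctl 2 was thus above the floor for *Retn*, unlike for *Lep* and *Adipoq*, and still below both ATO sarcomas. The log2 fold change, with its SE, was 5.09 ± 1.91 (adjusted p = 0.583 in edgeR), and the value without Ctl 2 was 11.25, which rests on a Ctl sarcoma at 0.

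*Fabp4* encodes the fatty acid binding protein of adipocytes, which macrophages and capillary endothelium also express, and lies on chromosome 3 from 10204088 to 10208576 on the minus strand. It had 990 and 5333 counts in Ctl and 12601 and 55423 in ATO, or 12.63, 66.1, 154.8 and 809.09 FPKM. Unlike the secreted products it was well above the floor in both Ctl sarcomas, and the groups did not overlap. The ratio of summed normalized counts was 13.6 (13.3 to 14.0), with a fitted difference of 4.0 ± 1.42 on the log2 scale (SE, adjusted p = 0.570 in edgeR). The DESeq2 adjusted p was 0.0117, and the alternatives that kept all sarcomas ranged up to 0.754, in a limma fit. Leaving out ATO 2 gave 2.12 and leaving out Ctl 2 gave 5.62. Macrophage and endothelial marker lists were read in all 4 sarcomas: the 7 endothelial genes summed to 123 and 1064 FPKM in the Ctl sarcomas and to 93.5 and 182 FPKM in the ATO sarcomas, with 0 of 7 at 0 anywhere. Of the endothelial genes 0 had an unadjusted p under 0.05, with a median log2 fold change of -1.77 that was 0.64 without Ctl 2. Values ran from *Vwf* (-0.31) and *Emcn* (-1.16) to *Cdh5* (-1.93) and *Tek* (-2.42). *Fabp4* itself was 5.16 times higher in Ctl 2 than in Ctl 1 (4.82 to 5.53). The part of these cells in the *Fabp4* level was not tested.

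Among the transcription factors, the pair that maintains the mature state was higher in both ATO sarcomas, and the early factors had smaller fitted values, a difference between genes that was not tested. *Pparg* encodes the nuclear receptor PPARγ, which is required for fat cell formation, and lies on chromosome 6 from 115360951 to 115490399 on the plus strand. It had 44 and 341 counts in Ctl and 435 and 1454 in ATO, or 0.85, 6.43, 8.12 and 32.27 FPKM. The groups did not overlap, but Ctl 2 came close to ATO 1 and was 7.42 times Ctl 1 (5.41 to 10.4). The log2 fold change, with its SE, was 2.85 ± 1.26 (adjusted p = 0.603 in edgeR, DESeq2 0.165), 1.31 without ATO 2 and 4.91 without Ctl 2. The table counts whole genes, so transcripts from the downstream start shown above cannot be told apart from the others.

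*Cebpa* encodes C/EBPα, which acts with PPARγ in the mature cell and is also used in liver and myeloid cells, and lies on chromosome 7 from 35119293 to 35121928 on the plus strand. It had 679 and 497 counts in Ctl and 1899 and 3477 in ATO, or 14.75, 10.49, 39.73 and 86.44 FPKM. Ctl 2 was 0.701 times Ctl 1 (0.623 to 0.788), and each ATO sarcoma was above both. The log2 fold change, with its SE, was 2.66 ± 0.64 (adjusted p = 0.570 in edgeR), and it lay between 1.78 and 3.18 with each sarcoma left out. The DESeq2 adjusted p was 0.0164, the lowest over the alternatives that kept all sarcomas, which reached 0.754 in a limma fit.

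*Cebpb* encodes C/EBPβ, an early factor that also acts in inflammation, and lies on chromosome 2 from 167688915 to 167690418 on the plus strand. It had 1410 and 1726 counts in Ctl and 1025 and 2711 in ATO, or 53.68, 63.86, 37.58 and 118.12 FPKM. ATO 1 was below both Ctl sarcomas and ATO 2 above both, so the groups overlapped. The log2 fold change, with its SE, was 0.76 ± 0.72 (adjusted p = 0.796 in edgeR) and -0.51 without ATO 2.

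*Cebpd* encodes C/EBPδ, the other early factor, and lies on chromosome 16 from 15887286 to 15891031 on the plus strand. It had 1012 and 1164 counts in Ctl and 2327 and 748 in ATO, or 53.2, 58.7, 128 and 59.9 CPM. ATO 2 exceeded Ctl 2 in CPM by a margin that TMM scaling decided, since its FPKM of 13.09 was below the 15.47 and 17.29 of the Ctl sarcomas, and 7 rather than 8 of the 10 genes had no overlap in FPKM. The log2 fold change, with its SE, was 0.75 ± 0.50 (adjusted p = 0.706 in edgeR), and 0.08 without ATO 1.

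*Zfp423* encodes a zinc finger protein that marks committed preadipocytes and restrains the thermogenic program of fat cells, and lies on chromosome 8 from 87661810 to 87959595 on the minus strand. It had 75 and 471 counts in Ctl and 187 and 226 in ATO, or 0.77, 4.67, 1.84 and 2.64 FPKM. Both ATO sarcomas lay between the Ctl sarcomas. The log2 fold change, with its SE, was 0.04 ± 0.95 (adjusted p = 0.995 in edgeR), it was -0.28 with total counts in place of TMM, and it ran from -0.74 without Ctl 1 to 1.84 without Ctl 2.

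Of these genes, 3 share exonic bases with a gene on the other strand, and whether reads were counted by strand is not given in the sources used here. *Cebpb* shared 312 of 1504 exonic bases with *Tmem189*, which had 1244 to 2150 counts, *Cebpd* shared 562 of 3746 with *Spidr*, which had 172 to 343, and *Cebpa* shared 51 of 2636 with *Gm45091*, which had at most 8. Reads from the shared bases cannot be assigned to 1 strand, so these 3 levels are uncertain to that extent.

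**Figure D2:**
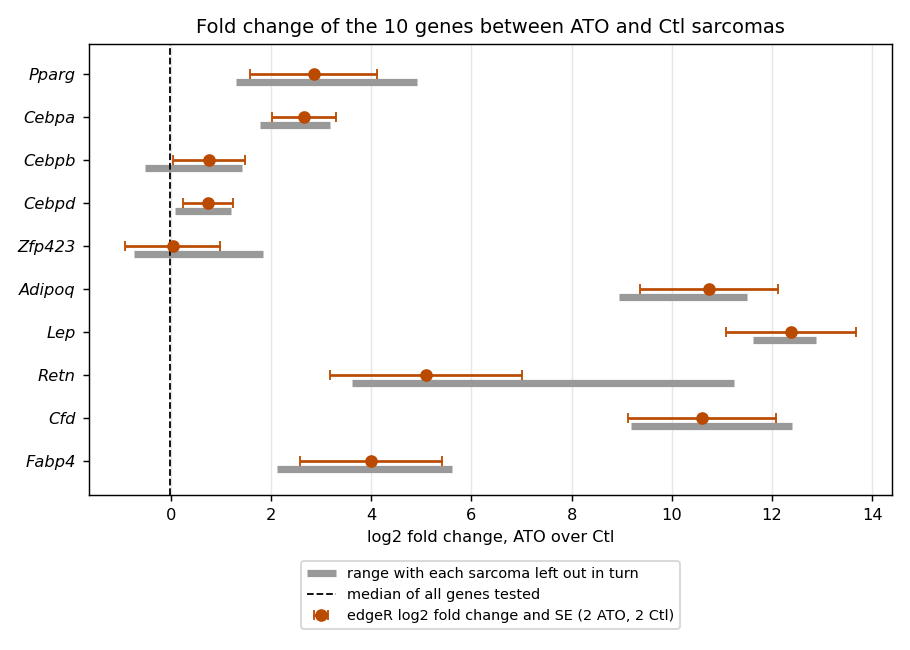
Log2 fold change of ATO over Ctl for each gene from edgeR with its SE (points and whiskers, 2 sarcomas a group), the range with each sarcoma left out in turn (grey bars) and the median of all genes tested (dashed line, -0.02). The secreted adipokines lie between 5.09 and 12.37, of which the value of *Lep*, at 0 counts in Ctl, depends on the prior count of the fit and is no bound, and the grey bars of *Cebpb* and *Zfp423* cross 0.

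In FPKM the order of levels differed between the groups. In Ctl, *Cebpb* had the highest mean (58.8 ± 7.20 FPKM, SD, n = 2), before *Fabp4* (39.4 ± 37.8), *Cebpd* (16.4 ± 1.29), *Cebpa* (12.6 ± 3.01), *Pparg* (3.64 ± 3.95) and *Zfp423* (2.72 ± 2.76). The adipokines came last, with *Retn* at 0.37 ± 0.52, *Cfd* at 0.24 ± 0.25, *Adipoq* at 0.08 in both and *Lep* at 0. In that order the ranges of *Cebpb* and *Fabp4*, *Fabp4* and *Cebpd*, *Pparg* and *Zfp423*, *Retn* and *Cfd*, and *Cfd* and *Adipoq* overlapped. The ranges do not use that the genes were read in the same sarcomas. Within each Ctl sarcoma *Pparg* was above *Zfp423*, while the other overlapping pairs switched order. In ATO the mean of *Fabp4* came first (482 ± 463 FPKM, SD, n = 2), then *Cfd* (303 ± 241), *Adipoq* (115 ± 107), *Cebpb* (77.9 ± 57.0) and *Cebpa* (63.1 ± 33.0). *Cebpd* (23.7 ± 14.97), *Pparg* (20.2 ± 17.1), *Retn* (9.91 ± 8.12), *Lep* (9.88 ± 5.20) and *Zfp423* (2.24 ± 0.57) followed. Only 2 neighbouring pairs in ATO had ranges that did not overlap, *Cebpa* above *Cebpd* and *Lep* above *Zfp423*. Within each ATO sarcoma *Fabp4* was also above *Cfd*, *Cfd* above *Adipoq*, *Adipoq* above *Cebpb* and *Pparg* above *Retn*. The other overlapping pairs switched order. In ATO 2, *Fabp4* had a higher FPKM than 99.8% of the genes tested and *Cfd* than 99.7%, while in Ctl 1 *Cfd* was above 3.61% of them.

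The 3 C/EBP genes stood in different proportions in the sarcomas. Of their summed FPKM, *Cebpa* made up 17.6% and 11.4% in the Ctl sarcomas but 35.6% and 39.7% in the ATO sarcomas. The *Cebpa* shares of the groups did not overlap. *Cebpb* had 64.0% and 69.7% in Ctl but 33.7% and 54.3% in ATO, and *Cebpd* had 18.4%, 18.9%, 30.7% and 6.01%. The ATO sarcomas thus had a like share of *Cebpa* and unlike shares of the early factors. These shares are a description and were not tested.

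**Figure D3:**
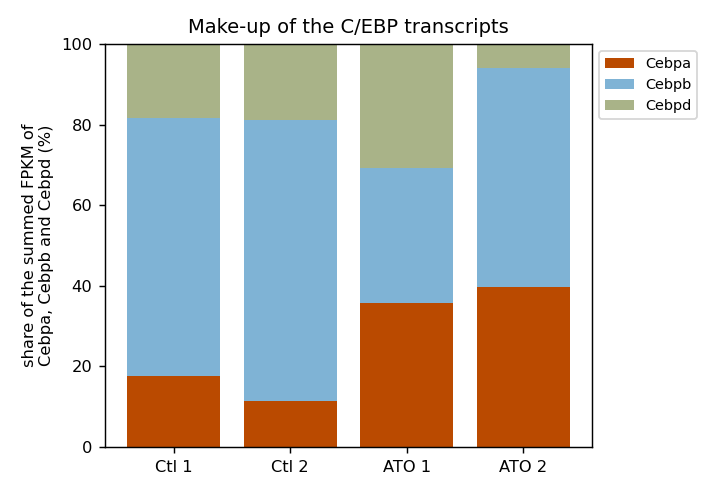
Share of the summed FPKM (%) of *Cebpa*, *Cebpb* and *Cebpd* in each sarcoma, as stacked bars. *Cebpa* takes 11.4% to 17.6% in Ctl and 35.6% to 39.7% in ATO.

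The ATO sarcomas differed from each other in nearly all of the 10 genes. ATO 2 was higher than ATO 1 in 9 of the 10 in CPM, from 1.76 times for *Zfp423* (1.45 to 2.15) to 6.42 times for *Fabp4* (6.29 to 6.54). *Cebpd* was the exception, at 0.469 times (0.431 to 0.509). The secreted products did not keep 1 ratio: *Adipoq* differed by 6.02 times and *Lep* by 2.69 times, with intervals that do not meet. Relative to *Adipoq*, *Fabp4* was at 3.98 and 4.24 in FPKM in ATO 1 and ATO 2 and *Cfd* at 3.40 and 2.48. *Lep* was at 0.159 and 0.0711, *Cebpa* at 1.02 and 0.453, and *Cebpd* at 0.881 and 0.0687. *Fabp4* was thus nearly proportional to *Adipoq* in ATO, while in Ctl it was 158 and 826 times *Adipoq*, a ratio that rests on 2 *Adipoq* counts in each. The intervals cover counting error only.

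**Figure D4:**
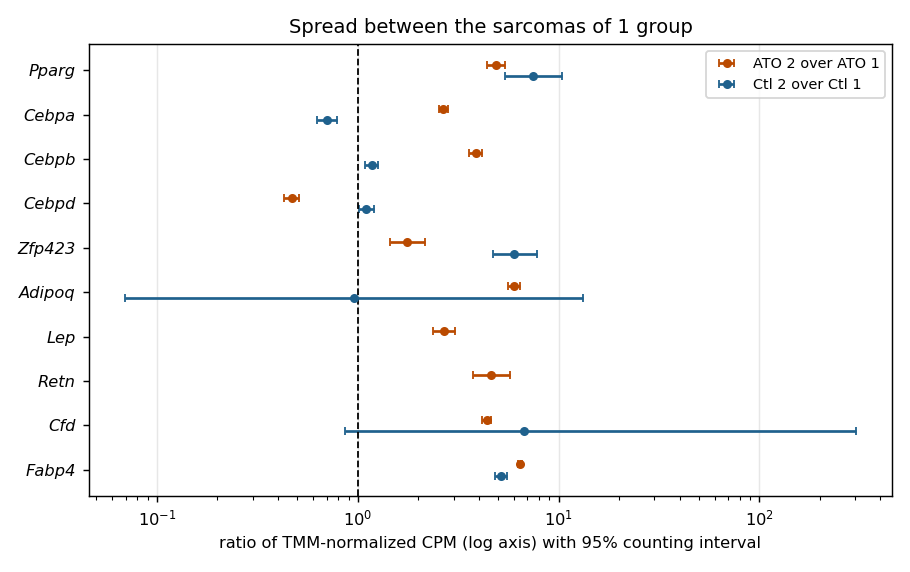
Ratio of TMM-normalized CPM (log axis) between the sarcomas of 1 group, ATO 2 over ATO 1 and Ctl 2 over Ctl 1, with 95% counting intervals and a dashed line at 1. *Cebpd* is the only gene below 1 in ATO, and *Pparg*, *Zfp423* and *Fabp4* differ by 5.16 to 7.42 times between the Ctl sarcomas. The Ctl ratio of *Cfd*, 6.71, rests on 1 and 7 counts and has an interval of 0.86 to 302. No Ctl ratio is drawn for *Lep* and *Retn*, which had 0 counts in Ctl 1.

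The genes whose levels over the 4 sarcomas were most like those of *Adipoq*, by Euclidean distance of centred log2(CPM + 1) among the 17188 genes, were *Cidec* (0.839), *Cfd* (0.928), *Slc36a2* (1.13), *Cox8b* (1.23) and *Fabp3* (1.28). *Cidec* encodes a protein of the lipid droplet surface and had 0.03 FPKM in either Ctl sarcoma but 23.53 and 247.72 FPKM in the ATO sarcomas. *Cox8b*, a subunit of cytochrome oxidase found in muscle and brown fat, had 0, 0.31, 50.7 and 674.8. With 4 sarcomas such likeness is a description.

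Known targets of PPARγ and C/EBPα were read beside the factors. Of 18 such genes, 0 passed the adjusted edgeR threshold, 13 had an unadjusted p under 0.05 in the direction of ATO (5.44% over all genes), and DESeq2 called 15 as higher (3.25%). Both ATO sarcomas were above both Ctl sarcomas for 14 of the 18 (19.7%). *Plin1*, *Cidec*, *Pck1*, *Aqp7* and *Adrb3* had 0 or 1 counts in each Ctl sarcoma and passed the filter only through the ATO sarcomas, so their part in these counts follows in part from the filter. The median log2 fold change of the 18 was 5.47, beside -0.02 over all genes, but 2.50 without ATO 2 and 3.03 with limma on log2(FPKM + 1). The highest were *Pck1* (13.59), which makes the glycerol backbone of stored fat in adipocytes, and *Plin1* (13.24), which coats the lipid droplet. Both had 0 and 1 counts in Ctl, so these values and their rank depend on the prior count, and both were at 9.58 without ATO 2. The lowest were *Mgst1* (2.38) and *Angptl4* (0.22), an inhibitor of lipoprotein lipase. Several genes of fatty acid synthesis were high in ATO 2 alone, named here after their values were seen: *Fasn*, fatty acid synthase, had 18.28 and 13.98 FPKM in Ctl, 4.63 in ATO 1 and 1061 in ATO 2.

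Other regulators were less uniform. Of 16 further regulators of adipogenesis, 4 had an unadjusted p under 0.05, all higher (5.44% over all genes), and 10 had both ATO sarcomas above both Ctl sarcomas (19.7%). Their median log2 value was 1.29, and 0.49 without ATO 2. *Rxrg*, a partner of PPARγ, was highest at 5.25 (0.05, 0.19, 3.94 and 3.88 FPKM), followed by *Klf15* at 4.73, and *Prdm16* at -0.52 and *Bmp4* at -1.24 were lowest. Of 12 inhibitors of adipogenesis, 0 had an unadjusted p under 0.05 in the direction of ATO (5.44% over all genes) and 1 in that of Ctl. Over all 17188 genes, 1463 had an unadjusted p under 0.05 in either direction, 935 of them in that of ATO. The median of the 12 inhibitors was -0.15, and 0.55 without Ctl 2. *Wnt10b*, a secreted ligand that blocks *Pparg* and *Cebpa*, was highest at 3.15, with 6.83 FPKM in ATO 1 and 0.08 to 0.79 in the other sarcomas. *Wnt5a* (-1.35) and *Zfp521*, a repressor of *Zfp423* (-1.26), were lowest. DESeq2 called 3 of the 16 regulators as higher and 0 of the 12 inhibitors, against 3.25% of all its genes. *Rxrg* had 2 and 8 counts in Ctl and passed the filter only through the ATO sarcomas. Its part in the edgeR counts thus follows in part from the filter.

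Of 12 further adipokine genes tested, out of 13, 4 had an unadjusted p under 0.05, all higher (5.44% over all genes), and 4 of the 12 had under 10 counts in a Ctl sarcoma. *Sfrp5* and *Retnla*, among the 4 with such a p, passed the filter only through the ATO sarcomas. Their part in this count thus follows in part from the filter. The median of the 12 was 2.00, with 0.82 without ATO 2 and 2.99 without Ctl 2. They ran from *Sfrp5*, a secreted Wnt antagonist (7.34, a value that depends on the prior count, with 0 FPKM in both Ctl sarcomas and at most 0.72 in ATO), and *Retnla* (5.03) down to *Apln* (-3.17). Of 9 adipokine receptor genes tested, out of 10, 0 had an unadjusted p under 0.05 and the median was 0.20, which was -0.08 with total counts, -0.02 without Ctl 1, -0.03 without ATO 2 and 0.79 without Ctl 2. The leptin receptor *Lepr* was highest at 3.70, but only ATO 1 stood out, with 49.44 FPKM against 1.47, 2.87 and 1.74 in Ctl 1, Ctl 2 and ATO 2. The adiponectin receptor *Adipor2* followed at 1.75, with 12.24 and 24.6 FPKM in Ctl and 32.53 and 65.89 in ATO. *Cdh13*, which binds adiponectin on vessels, was at -1.24 and *Aplnr* at -3.14. Of 8 markers of adipocyte progenitors, 0 had an unadjusted p under 0.05 and the median was -0.62, but 0.06 without Ctl 1, 0.50 without Ctl 2 and -1.45 without ATO 2. Values ran from *Cd34* (-1.68) and *Pdgfrb* (-1.25) to *Dpp4* (1.77) and *Pi16* (1.82).

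Marker lists of whole cell types were read in the same sarcomas, and edgeR called 0 of their genes. DESeq2 called as higher 7 of 7 adipocyte, 4 of 7 brown adipocyte, 7 of 7 skeletal muscle and 4 of 6 osteoblast genes (3.25% of all its genes). It also called 1 of 6 macrophage genes as higher, and 0 of the 7 endothelial and 0 of the 7 epithelial genes. Of the 7 adipocyte markers, 4 are the adipokines above and 6 had under 10 counts in a Ctl sarcoma. All 7 had an unadjusted p under 0.05 in the direction of ATO (5.44% over all genes). The 6 with few Ctl counts passed the filter only through the ATO sarcomas, so their part in this count follows in part from the filter. The 7 markers summed to 2.54 and 9.65 FPKM in Ctl but to 222 and 1151 FPKM in ATO. In Ctl 1, 3 of these 7 were at 0 counts, in Ctl 2 only *Lep*, and in ATO 0 were. The 7 brown adipocyte markers were high in 1 sarcoma: their summed FPKM was 35.5 and 1.49 for Ctl, 15.04 for ATO 1 and 2347 for ATO 2, and the Ctl 1 value was mostly *Dio2* at 32.73 FPKM. *Ucp1*, the uncoupling protein that defines thermogenic fat, had 2, 3, 1 and 37084 counts, and the filter, which asks for reads in 2 sarcomas, removed it from the test. Of the 5 tested, 3 had an unadjusted p under 0.05, all higher (5.44% over all genes). *Cidea* and *Elovl3*, among these 3, passed the filter only through the ATO sarcomas. Their part in this count thus follows in part from the filter. At 0 counts were 2 of the 7 in Ctl 1, 3 in Ctl 2 and 0 in ATO. Their highest fitted values were *Cidea* (15.66) and *Elovl3* (13.18), which were at 0 in both Ctl sarcomas so that the values depend on the prior count, and their lowest *Ppara* (2.19) and *Dio2* (-2.59). ATO 2 was also the sarcoma with the highest *Adipoq*, *Fabp4* and mitochondrial share.

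Markers of other tissues differed in which sarcoma was high. The 7 skeletal muscle genes summed to 7.23 and 116 FPKM in Ctl and 13241 and 985 in ATO, and 0 of 7 were at 0 in any sarcoma. An unadjusted p under 0.05 was found for 6 of 7, all higher (5.44% over all genes). *Ckm* and *Mb*, among these 6, had 5 and 3 counts in Ctl 1, so their part in this count follows in part from the filter. The 6 osteoblast genes summed to 2.91 and 3.53 FPKM in the Ctl sarcomas, to 504 in ATO 1 and to 3.94 in ATO 2. In Ctl 1 and in ATO 2, 1 of 6 was at 0. Of the 6, 2 had an unadjusted p under 0.05, both higher (5.44% over all genes). The median log2 fold change of the osteoblast list was 6.37, but -1.29 without ATO 1. The 6 macrophage genes summed to 344 and 168 in Ctl and 298 and 450 in ATO, with overlap. Only 1 of 6, *Marco*, had an unadjusted p under 0.05, and it was higher (5.44% over all genes). Of 7 epithelial genes of mammary gland and skin, 5, 1, 3 and 1 were at 0 in Ctl 1, Ctl 2, ATO 1 and ATO 2, and they summed to 0.76, 7.38, 5.40 and 18.5. ATO 1, with the most muscle and osteoblast transcripts, had the lower adipokine levels of the ATO pair. The part of host fat or muscle, of the kind of sarcoma, and of brown adipocytes in the levels of the 10 genes was not tested, and the kind of sarcoma and the treatment cannot be told apart in this design.

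**Figure D5:**
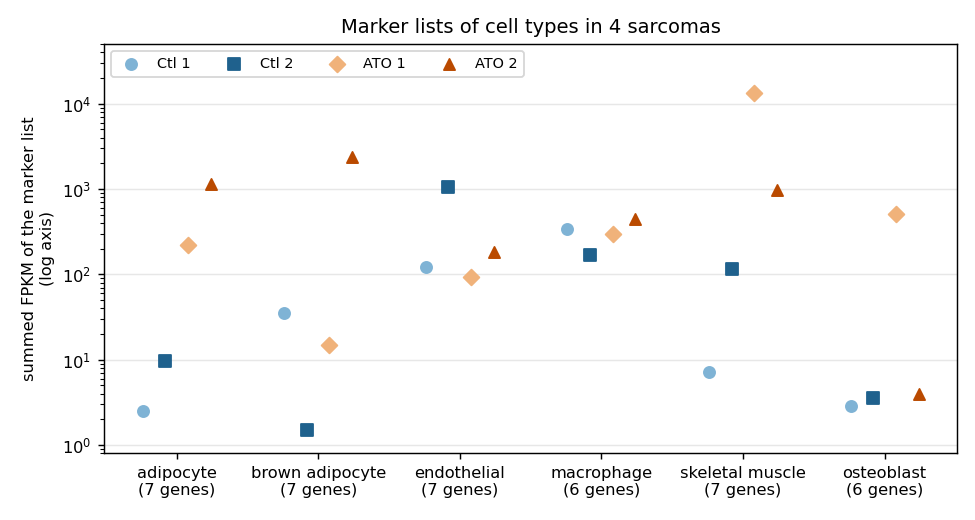
Summed FPKM (log axis) of the marker genes of 6 cell types in each sarcoma, with 1 symbol per sarcoma and the number of genes under each name. Adipocyte and skeletal muscle markers are higher in both ATO sarcomas, brown adipocyte markers are high in ATO 2, osteoblast markers in ATO 1 and endothelial markers in Ctl 2.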

How the data were processed

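RNA was measured by RNA-seq in 4 sarcomas of W/+ mice, grouped as ATO or Ctl by the labelled treatment. The authors deposited raw read counts per gene, made per the labels and methods with cutadapt 1.9.1, HISAT2 2.0.1 and HTSeq, and the deposited FPKM equal the counts divided by gene length and total count in all values (tolerance 0.006 plus 0.001 of the value). Strand and multi-mapping settings are not given in the sources used here. The submitters name GRCm38, but 0 of 10 genes have their GENCODE M21 position in the deposited table, so positions were taken from GENCODE M21 by identifier. The methods and the labels differ in the library kit they name.

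The main test was the quasi-likelihood F-test of edgeR 4.0.16 (R 4.3.3) on 2 ATO against 2 Ctl sarcomas, after filterByExpr and TMM scaling (factors from 0.822, in ATO 2, to 1.11), with Benjamini-Hochberg adjustment over 17188 genes and a threshold of 0.05. These genes held at least 99.49% of the counts of each sarcoma. A count of 0 allows 3 counts, or 0.165 to 0.197 CPM of the total counts before TMM scaling. SE is the fold change divided by the root of F. Ratios of summed counts have exact binomial 95% intervals, which cover counting error only. Alternatives were DESeq2 1.42.0, its size factors, total counts, no filter, no mitochondrial genes, a replicate block, limma 3.58.1 on log2(FPKM + 1) and log2(FPKM + 0.1), and each sarcoma left out. Tests were tried on simulated counts. For 1 symbol on 2 rows, *Ddit3*, the row with more counts was kept. Other values were computed in Python 3.11.15 with scipy 1.17.1.

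The genes named were the 10 in full, the 2 highest and 2 lowest of each further list, any list gene at 0 or dropped by the filter, and the 5 nearest to *Adipoq*. Of these, 1 gene is not reported here. *Fasn* and *Dio2* FPKM were singled out after their values were seen. The genes and lists were chosen with earlier results of these data known.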

Additional observations from a re-analysis of the deposited data

How the results depend on the processing

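The count of genes past the threshold was 753 with DESeq2 and 541 without the filter on low counts, where 0 passed in edgeR, and the count among the 10 genes was 6 and 5. The settings that called none of the 10 were the other size factors, total counts, the fit without mitochondrial genes, the 3 limma fits, the replicate block and each of the 4 fits with a sarcoma left out. The cause of the difference was not tested. The median log2 fold change of the 10 was 3.42, 3.05 with total counts and between 2.52 and 3.16 with limma. It ranged from 1.95 without ATO 2 to 5.26 without Ctl 2. Only *Zfp423* and *Cebpb* changed sign: *Zfp423* was at -0.28 with total counts and between -0.74 and 1.84 when 1 sarcoma was left out, and *Cebpb* was then between -0.51 and 1.42. With a sarcoma left out, the lone one is assumed to vary like the pair. The median over all genes was -0.28 with total counts, so values there lie about that much lower. With all 4 sarcomas kept, the number of genes with both ATO sarcomas above both Ctl sarcomas was 7 or 8. For no filter, no mitochondrial genes and the replicate block it was counted on the CPM of the main fit, so it could not differ. With 1 sarcoma left out, 1 group held a lone sarcoma, and 8 or 9 genes had the groups apart in this direction.

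The labels do not say that equal replicate numbers mark a shared batch, and the deviations of equally numbered sarcomas from their group means had a correlation of -0.02. With the replicate block 0 genes passed and the median of the 10 was 3.47. There were 2 sarcomas a group and the coefficient of variation was 62.5%. Of the 10 genes, only *Adipoq*, *Lep*, *Retn* and *Cfd* had at most 21 counts in each Ctl sarcoma. How far spread or depth limited the tests was not tested.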
